A study of Homo sapiens with 12 samples.

Results

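The genes described here are the nuclear-encoded subunits of the oxidative phosphorylation complexes, chosen by name alone. A gene entered if its symbol began with NDUFA, NDUFB, NDUFC, NDUFS or NDUFV followed by a number, if it was NDUFAB1, or if it began with UQCR, with COX4, COX5, COX6, COX7 or COX8, or with ATP5F1, ATP5M or ATP5P. The NDUFAF assembly factors were left out. This gave 83 of the 22963 names in the expression table. By symbol alone, 38 were assigned to complex I, 9 to complex III, 17 to complex IV and 19 to ATP synthase. All counts by complex follow this, so NDUFA4 is counted with complex I and COX7A2L with complex IV. The mRNA of 4 groups, each with 3 biological replicates (12 libraries), was sequenced from the hepatocellular carcinoma cell lines PLC/PRF5 and MHCC97H. The PLC/PRF5 groups were a control that carried the vector without an insert and cells with EGR1 overexpression from a lentiviral vector with a CMV promoter. The MHCC97H groups were parental cells, described as mock, and cells labelled EGR1 knockout, for which the study made single clones with a lentiviral CRISPR vector. It is not stated which clone was sequenced, so clone and genotype cannot be told apart. All cells were grown in the same medium, and the labels name no other treatment. EGR1 is a zinc-finger transcription factor of the immediate early response, and the study asked how raising or removing it changes these cells.

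Oxidative phosphorylation takes place in the inner membrane of mitochondria. Complex I oxidises NADH, complex III passes electrons from ubiquinol to cytochrome c, and complex IV hands them to oxygen. These complexes pump protons, and ATP synthase uses the return flow to make ATP. Most subunits are encoded in the nucleus and imported, while a small set of core membrane subunits is encoded by mitochondrial DNA (mtDNA). The liver is rich in mitochondria, and tumours of the liver often shift between respiration and glycolysis.

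EGR1 itself was measured first. Its FPKM (fragments per kilobase of transcript, scaled to the fragments of the library) was 1.97, 1.43 and 2.03 in the PLC/PRF5 control libraries and 56.3, 50.2 and 52.2 with overexpression. The parental MHCC97H libraries had 20.2, 23.1 and 21.2, and the libraries labelled knockout had 35.2, 50.3 and 32.9. EGR1 mRNA was therefore higher in the libraries labelled knockout, by 0.83 on the log2(FPKM + 1) scale (standard error, SE, 0.15, limma adjusted p = 0.00126). The study reports that its knockout clones were checked by western blot and DNA sequencing. An mRNA level shows neither protein nor gene sequence, and the sequenced clone is not named, so this check cannot settle the genotype. For this reason these samples are called the libraries labelled knockout, and every direction below is drawn from the label. An exact permutation test of 3 against 3 libraries gave p = 0.1 for EGR1 in each comparison, the smallest value it can give.

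The labelled cell type was checked against hepatocyte and hepatoma markers. Of 13 markers, 11 had a mean of at least 1 FPKM in the PLC/PRF5 control and 7 in parental MHCC97H. Keratin genes KRT8 and KRT18 were abundant in both lines, whereas SERPINA1, a secreted liver protein, had a mean of 1372 FPKM in the PLC/PRF5 control and 0.212 in parental MHCC97H. EPCAM and TTR were at or near 0 in both. Among markers of other cell types, PTPRC, CD3E, VWF, CDH5, COL1A1, DCN, MYH2, CKM and ACTA1 had means under 1 FPKM in all 4 groups. CD68 and PECAM1 were above 1 FPKM in every group, and LYZ had a mean of 142 FPKM in the PLC/PRF5 control and 0.0800 in parental MHCC97H. Of these 15 markers, 3 were above 1 FPKM in PLC/PRF5 and 2 in MHCC97H. How the markers moved is given beside the comparisons. The libraries' FPKM summed to between 376335 and 437652, and no read numbers are known, so no counting error can be given. One library stood apart for the subunit genes. In EGR1 replicate 1, 68 of the 76 tested subunit genes were below both other EGR1 libraries, with a median difference of -0.40 on the log2(FPKM + 1) scale, while the median over all genes was -0.03. In replicate 1 of the libraries labelled knockout, 64 of 75 were below both others, with a median of -0.24. Results that rest on EGR1 replicate 1 are given with and without it.

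**Figure D1:**
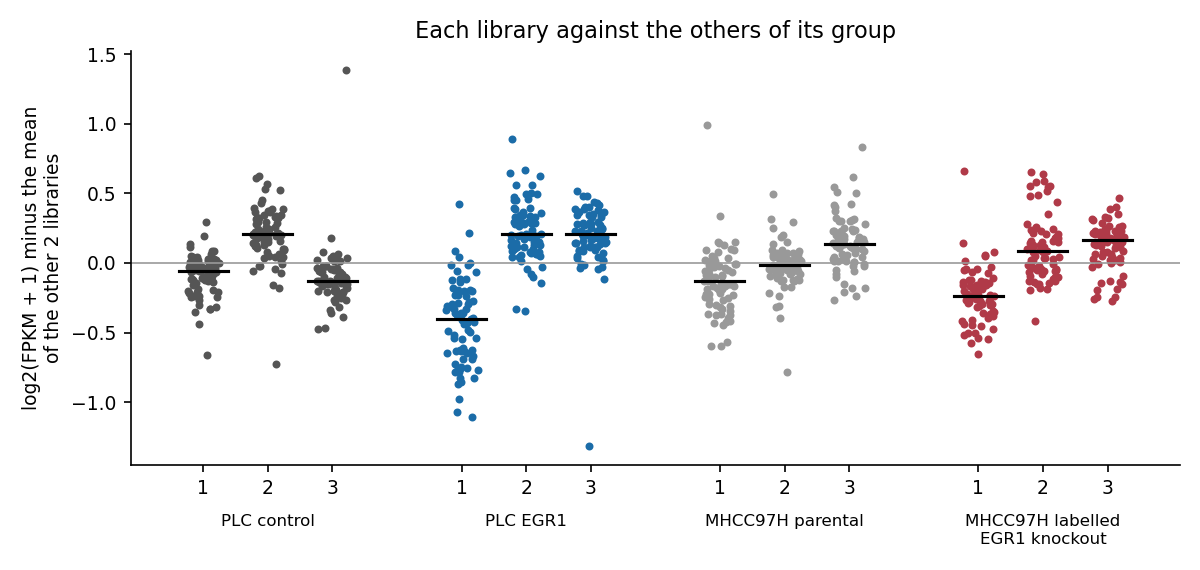
Each point is 1 subunit gene, plotted as its log2(FPKM + 1) in a library minus the mean of the other 2 libraries of its group, and bars mark medians. EGR1 replicate 1 has the lowest median, -0.40, and replicate 1 of the libraries labelled knockout lies at -0.24.

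Promoters of this gene family are known for motifs of the nuclear respiratory factors NRF1 and GABP (an ETS factor), of YY1 and of SP1. RefSeq promoter windows on GRCh38.p14, from 250 bases before to 50 bases after a gene's start, were matched for 66 of the 83 genes. In 50 of the 66 the window's start lay within 100 bases of a principal transcript start of GENCODE 29. A match to the NRF1 motif GCGCANGCG on either strand was found in 21 windows (31.8%), against 7.52% of all 35116 windows. The ETS motif CCGGAAG was found in 18 (27.3%, against 10.3% of all) and the YY1 motif ATGGCGG in 17 (25.8%, against 5.55%). In 14 genes a YY1 match ended after the start site. The EGR1 motif GCGNGGGCG was found in 7 windows (10.6%), close to its share of 9.43% among all windows. The SP1 motif GGGCGG, which can overlap the EGR1 motif, was found in 40 (60.6%, against 45.0%). Genes with higher and lower RNA in the libraries labelled knockout, described below, had NRF1 matches in 8 of 27 and 5 of 16 windows and EGR1 matches in 3 of 27 and 1 of 16. ETS matches were in 8 of 27 and 4 of 16, YY1 matches in 10 of 27 and 3 of 16, and SP1 matches in 19 of 27 and 7 of 16. Median GC content of these windows was 60.3% and 56.7%, and differences between these sets were not tested. A match describes letters only and is not a binding site.

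Stretches before the start that lie in no annotated exon are shown for COX5B, the complex IV gene with the largest rise in the libraries labelled knockout, and for ATP5MD and COX7B, the genes with the largest falls of ATP synthase and complex IV. Capitals mark motif matches, and each sequence is written 5′ to 3′ on the gene's strand. The stretch of COX5B (chr2:97645812-97646039, plus strand) holds SP1 matches, 1 match to the EGR1 motif and 1 to the ETS motif. That of ATP5MD (chr10:103396493-103396625, minus strand) holds 2 SP1 matches, and that of COX7B (chrX:77899218-77899437, plus strand) none of the 5 motifs. The full windows held 3 ETS matches for ATP5MD and 2 for COX5B, so some lie outside the stretches shown.
COX5B: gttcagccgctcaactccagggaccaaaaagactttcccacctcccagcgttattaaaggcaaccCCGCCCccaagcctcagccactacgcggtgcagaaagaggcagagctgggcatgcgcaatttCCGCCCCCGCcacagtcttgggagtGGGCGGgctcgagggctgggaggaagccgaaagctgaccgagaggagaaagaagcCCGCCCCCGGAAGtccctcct
ATP5MD: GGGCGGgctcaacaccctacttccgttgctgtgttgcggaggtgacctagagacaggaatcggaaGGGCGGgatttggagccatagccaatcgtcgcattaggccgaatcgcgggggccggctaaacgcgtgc
COX7B: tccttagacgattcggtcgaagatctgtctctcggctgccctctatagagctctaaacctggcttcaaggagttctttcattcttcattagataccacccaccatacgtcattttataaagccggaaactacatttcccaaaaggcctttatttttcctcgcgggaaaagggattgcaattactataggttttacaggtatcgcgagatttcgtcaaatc

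Of the 83 names, 7 were too low for any test, with a mean FPKM under 1. COX4I2, COX6A2, COX6B2, COX7A1 and COX8C are isoforms known from lung, muscle or testis, ATP5MGL is a copy of the subunit g gene, and ATP5MF-PTCD1 is a readthrough name. COX4I2 and COX8C were listed at 0 in all 12 libraries, and no library had more than 0.360 FPKM of any of the others. The remaining 76 were tested, except that UQCRHL, a near-identical copy of UQCRH, was under the filter in MHCC97H. UQCRHL had 2.13, 2.40 and 2.40 FPKM in the PLC/PRF5 control and 0.278, 0.438 and 0.844 in parental MHCC97H. Its reads cannot be separated with certainty from those of UQCRH.

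Where related genes or isoforms of complex IV form a set, a single one carried nearly all RNA in most sets. COX4I1 had 304 to 331 FPKM in the PLC/PRF5 control and 170 to 194 in parental MHCC97H, and COX6A1, COX6B1, COX7A2 and COX8A were likewise the expressed partners of the silent isoforms. COX7A2L, related to COX7A2, was expressed beside it. Their means were 36.8 and 191 FPKM in the PLC/PRF5 control and 21.2 and 43.2 in parental MHCC97H. In the libraries labelled knockout they were 41.7 for COX7A2L and 35.9 for COX7A2. Another exception was COX7B2, whose known main site is testis. It had 16.8, 23.3 and 20.3 FPKM in the PLC/PRF5 control, 14.5, 18.7 and 19.0 with EGR1, 13.4, 11.5 and 12.9 in parental MHCC97H and 19.9, 22.2 and 17.4 in the libraries labelled knockout. COX7B had 29.4, 39.1 and 30.9 FPKM in the control, so both genes of this pair were detected in every library.

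By level, ATP5F1B, the catalytic beta subunit of ATP synthase, led the family in every group, with a mean of 597 FPKM (SD 11.0, n = 3) in the PLC/PRF5 control and 461 (SD 20.5, n = 3) in parental MHCC97H. NDUFA5, an accessory subunit of the complex I arm that holds the ubiquinone site, was near the bottom of the PLC/PRF5 control at 4.47 FPKM (SD 1.04, n = 3). Summed over all 83 genes, the family held 2.18% to 2.36% of a library's FPKM in the PLC/PRF5 control and 1.19% to 1.34% in parental MHCC97H, so the groups did not overlap. With EGR1 the share was 1.96% to 2.48%, a range that includes all control libraries, and EGR1 replicate 1 was the lowest. The libraries labelled knockout had 1.28% to 1.41%, which overlapped the parental range.

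**Figure D2:**
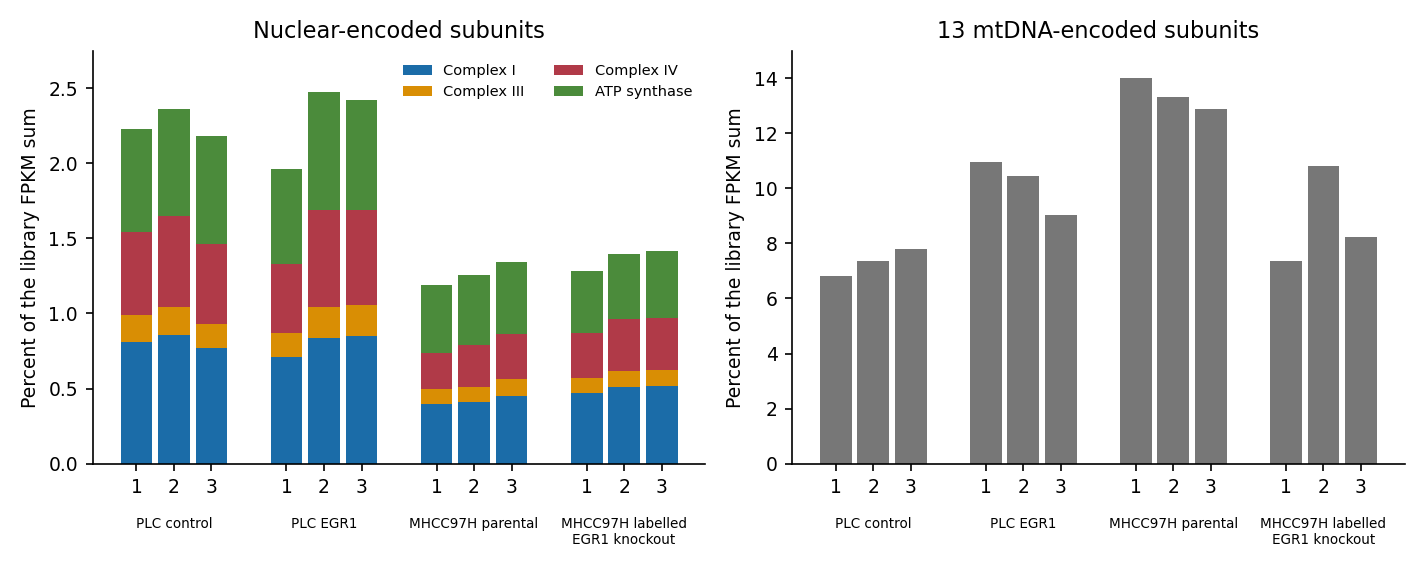
Bars give the percent of each library's FPKM sum held by the nuclear-encoded subunits, stacked by complex (left), and by the 13 mtDNA-encoded subunits (right), for replicates 1 to 3 of each group. The nuclear share is 2.18% to 2.36% in the PLC/PRF5 control and 1.19% to 1.34% in parental MHCC97H, while the mtDNA-encoded share is higher in parental MHCC97H.

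The largest difference in the family was between the cell lines. Of 76 subunit genes tested, 62 were lower and 6 higher in parental MHCC97H than in the PLC/PRF5 control (limma adjusted p under 0.05), whereas 40.9% of all 12046 genes tested were lower and 38.8% higher. The median difference of the subunit genes was -1.08 on the log2(FPKM + 1) scale, against -0.02 over all genes. In 64 genes every parental library was below every control library, and in 6 every one was above, where 41.7% and 39.2% of all genes did so. The line and everything that was done to it differ together, so cell line and vector cannot be told apart in this comparison. Of 11 hepatocyte and hepatoma markers tested, 8 were lower and 1 higher in parental MHCC97H, and of 3 tested markers of other cell types 2 were lower and 1 higher. Their part in the subunit differences was not tested. Fewer cells of a kind and less RNA per cell cannot be told apart in bulk RNA either.

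Complex I showed the widest spread, with 30 of 38 genes lower. All 7 core nuclear subunits, among them the carriers of the flavin and the iron-sulfur clusters, were lower, by -0.33 for NDUFS1 to -1.34 for NDUFS8. NDUFA13 (GRIM-19), an accessory subunit of the membrane arm, had 135, 151 and 126 FPKM in the control and 21.2, 24.9 and 31.0 in parental MHCC97H. These ranges did not overlap, and the difference was -2.39 (SE 0.14, adjusted p = 4.77e-07). NDUFA2, an accessory subunit near the NADH site, had 107, 132 and 94.0 FPKM against 17.3, 20.2 and 25.5, a difference of -2.35 (SE 0.16, adjusted p = 1.54e-06). NDUFB7, NDUFS6, NDUFA6, NDUFB8 and NDUFB1 were also more than 2 lower on the log2(FPKM + 1) scale. The other called genes, 3 in all, were higher. NDUFA5 had 3.83, 5.67 and 3.91 FPKM in the control and 27.5, 11.6 and 15.4 in parental MHCC97H (difference 1.74, SE 0.27, adjusted p = 0.000371), and NDUFB6 had 20.0, 28.1 and 23.0 against 43.5, 39.3 and 42.1. NDUFB5 was higher by 0.50.

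In complex III, 8 of 9 genes were lower, and the exception was one of the paired core proteins. UQCRC2 had 45.8, 45.5 and 46.8 FPKM in the control and 90.6, 95.6 and 93.4 in parental MHCC97H, a difference of 1.00 (SE 0.07, adjusted p = 1.56e-06). Its partner UQCRC1 went the other way, from 162, 155 and 151 to 51.3, 50.6 and 58.2 FPKM (-1.53, SE 0.08, adjusted p = 3.04e-07). The hinge protein gene UQCRH had 202, 242 and 191 FPKM against 72.1, 75.0 and 75.0 (-1.50). Both core proteins are present in equal number in the complex, and here their RNAs differed in opposite directions with no overlap between libraries. The Rieske iron-sulfur subunit UQCRFS1 differed by -0.26.

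In complex IV, 10 of 12 tested genes were lower. COX7A2 had 186, 203 and 185 FPKM in the control and 34.1, 38.9 and 56.5 in parental MHCC97H (-2.15, SE 0.16, adjusted p = 3.11e-06), and COX8A had 373, 428 and 341 against 101, 123 and 138 (-1.66). COX7B was the single gene that was higher, with 58.5, 59.4 and 58.6 FPKM in parental MHCC97H (0.82, SE 0.11, adjusted p = 0.000121). COX7A2L, an assembly factor of respiratory supercomplexes related to COX7A2, had 35.1, 37.6 and 37.7 FPKM against 17.9, 26.6 and 19.2, a smaller difference of -0.79.

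In ATP synthase, 14 of 17 tested genes were lower. The 3 genes of subunit c, which encode the same mature protein of the rotor ring, were not alike. ATP5MC1 had 192, 208 and 186 FPKM in the control and 46.7, 40.7 and 48.04 in parental MHCC97H (-2.09, SE 0.09, adjusted p = 7.83e-08). ATP5MC3 had 117, 137 and 118 against 41.2, 48.003 and 36.8. ATP5MC2 had 220, 202 and 239 against 195, 170 and 227, which overlapped. ATP5ME (subunit e) had 114, 135 and 94.5 FPKM against 29.4, 37.1 and 35.9 (-1.71), and ATP5PB, the b subunit of the stalk, was the one that was higher, with 22.3, 29.5 and 23.8 against 37.0, 34.9 and 31.7 (0.45, SE 0.12, adjusted p = 0.00654).

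**Figure D3:**
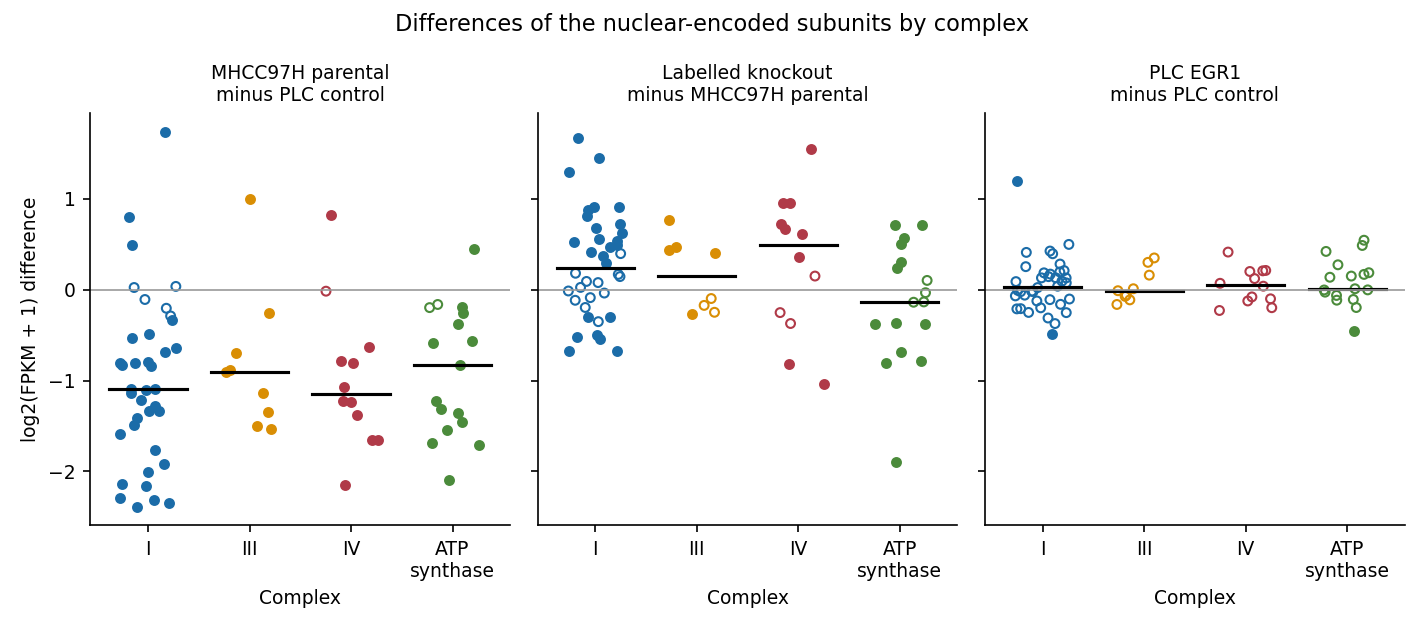
Points are the tested subunit genes by complex, placed at their log2(FPKM + 1) difference in each of the comparisons. Filled points passed limma's adjusted p of 0.05, bars are medians, and the line comparison at left lies mostly below 0 (62 lower, 6 higher) while 3 points are filled at right.

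GC content and length of the transcript moved with this difference. Across the 76 subunit genes, which are not independent replicates, Spearman's rho between GC content and the difference was -0.45, against -0.34 over 11214 genes. For length it was 0.40, against 0.25. The subunit transcripts were short, with a median of 861 bases against 2952 over all these genes. After a spline on GC content and length was removed, 54 subunit genes were lower and 9 higher, with a median of -0.64, and 43.2% and 37.7% of all genes were lower and higher. ATP5F1D moved from -0.25 to 0.48 with this correction, and ATP5PB was no longer past the threshold. The part of GC content and of length in the difference between the lines was not tested.

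The comparison of the libraries labelled knockout with parental MHCC97H gave calls in both directions within each complex. Of 75 tested genes, 35 were higher and 17 lower, while 34.8% and 31.5% of all 11577 genes were. The median was 0.17, against 0.02 over all genes. Complex I had 18 higher and 7 lower, complex III 4 and 1, complex IV 7 and 2, and ATP synthase 6 and 7. In 35 genes every library labelled knockout was above every parental one and in 16 below, against 38.3% and 33.6% of all genes. Of 7 hepatocyte and hepatoma markers tested here, 5 were higher and 1 lower, with ALB at 3.11 (adjusted p = 1.61e-06) and FGB at 2.35 (adjusted p = 7.04e-06), and the macrophage marker CD68 was at 0.90 (adjusted p = 5.76e-05). The part of these shifts in the subunit changes was not tested. The direction of the family as a whole depended on the scaling. When libraries were scaled to the same total the split was 30 higher and 22 lower with a median of 0.02, where the median of all genes moved to -0.11, and with quantile normalization it was 24 and 23 with a median of -0.01.

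The largest rise was in complex I. NDUFA13 had 21.2, 24.9 and 31.0 FPKM in parental MHCC97H and 73.3, 85.9 and 89.5 in the libraries labelled knockout, without overlap (1.67, SE 0.14, adjusted p = 3.52e-05). NDUFA11, a membrane arm subunit, had 31.5, 34.1 and 37.6 FPKM against 82.8, 107 and 99.0 (1.45, SE 0.11, adjusted p = 2.81e-05). Both lie on chromosome 19. The largest falls with no overlap were NDUFB1, from 14.0, 14.2 and 11.8 to 6.86, 10.5 and 6.90 FPKM (-0.68, SE 0.16, adjusted p = 0.00451), and NDUFS4, a subunit next to the NADH site, from 19.3, 21.8 and 18.3 to 10.1, 16.8 and 13.7 (-0.54). NDUFS4 was not past the threshold after the GC and length correction (adjusted p = 0.191), nor without parental replicate 2 (adjusted p = 0.0523). Among the core subunits, NDUFV1, NDUFS7 and NDUFS8 were higher and NDUFS1 was lower. NDUFA4, which was first assigned to complex I and is now known as a subunit of complex IV, had 52.7, 53.8 and 58.4 FPKM in parental MHCC97H and 33.5, 42.0 and 38.9 in the libraries labelled knockout (-0.52, SE 0.10, adjusted p = 0.00186). The NDUFA4 call did not hold after the GC and length correction.

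In complex III, UQCR10, a small subunit, rose from 24.9, 23.7 and 27.0 to 37.7, 45.6 and 47.9 FPKM (0.77, SE 0.11, adjusted p = 0.000357). UQCRC1 had 51.3, 50.6 and 58.2 FPKM in parental MHCC97H and 69.9, 72.4 and 80.1 in the libraries labelled knockout (0.47), and UQCRC2 had 90.6, 95.6 and 93.4 against 79.4, 75.2 and 77.0 (-0.27). The core proteins were again called in opposite directions, though neither call held after the GC and length correction, where UQCRC1 was at -0.09 (adjusted p = 0.171) and UQCRC2 at -0.07 (adjusted p = 0.297).

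In complex IV, COX5B, a nuclear subunit on the matrix side, had 35.9, 40.1 and 47.0 FPKM in parental MHCC97H and 108, 126 and 131 in the libraries labelled knockout (1.55, SE 0.12, adjusted p = 2.76e-05). COX6A1 had 131, 152 and 174 against 265, 300.0 and 322 (0.96, SE 0.12, adjusted p = 0.000201). COX7B went the other way, from 58.5, 59.4 and 58.6 to 20.5, 38.3 and 28.1 FPKM (-1.04, SE 0.18, adjusted p = 0.00108), and COX7C from 82.9, 99.4 and 112 to 42.8, 67.1 and 56.8 (-0.82). COX7B2 rose while COX7B fell, by 0.61 (SE 0.11, adjusted p = 0.0013). The COX7C call did not hold after the GC and length correction (adjusted p = 0.0734).

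In ATP synthase the strongest change of the family was a fall of ATP5MD, a small membrane subunit (DAPIT) linked to ATP synthase dimers. It had 180, 175 and 179 FPKM in parental MHCC97H and 39.6, 61.0 and 43.0 in the libraries labelled knockout, 3.72-fold lower by means, and the difference was -1.90 (SE 0.14, adjusted p = 2.71e-05). ATP5PO, the OSCP stalk subunit, went from 113, 115 and 106 to 57.5, 63.9 and 69.2 FPKM (-0.81, SE 0.09, adjusted p = 0.000122). ATP5MF (subunit f) rose from 77.1, 91.5 and 98.3 to 130, 161 and 149 (0.72), and ATP5MC1 from 46.7, 40.7 and 48.04 to 68.9, 71.9 and 82.6 (0.71). The catalytic subunit ATP5F1B rose by 0.24.

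**Figure D4:**
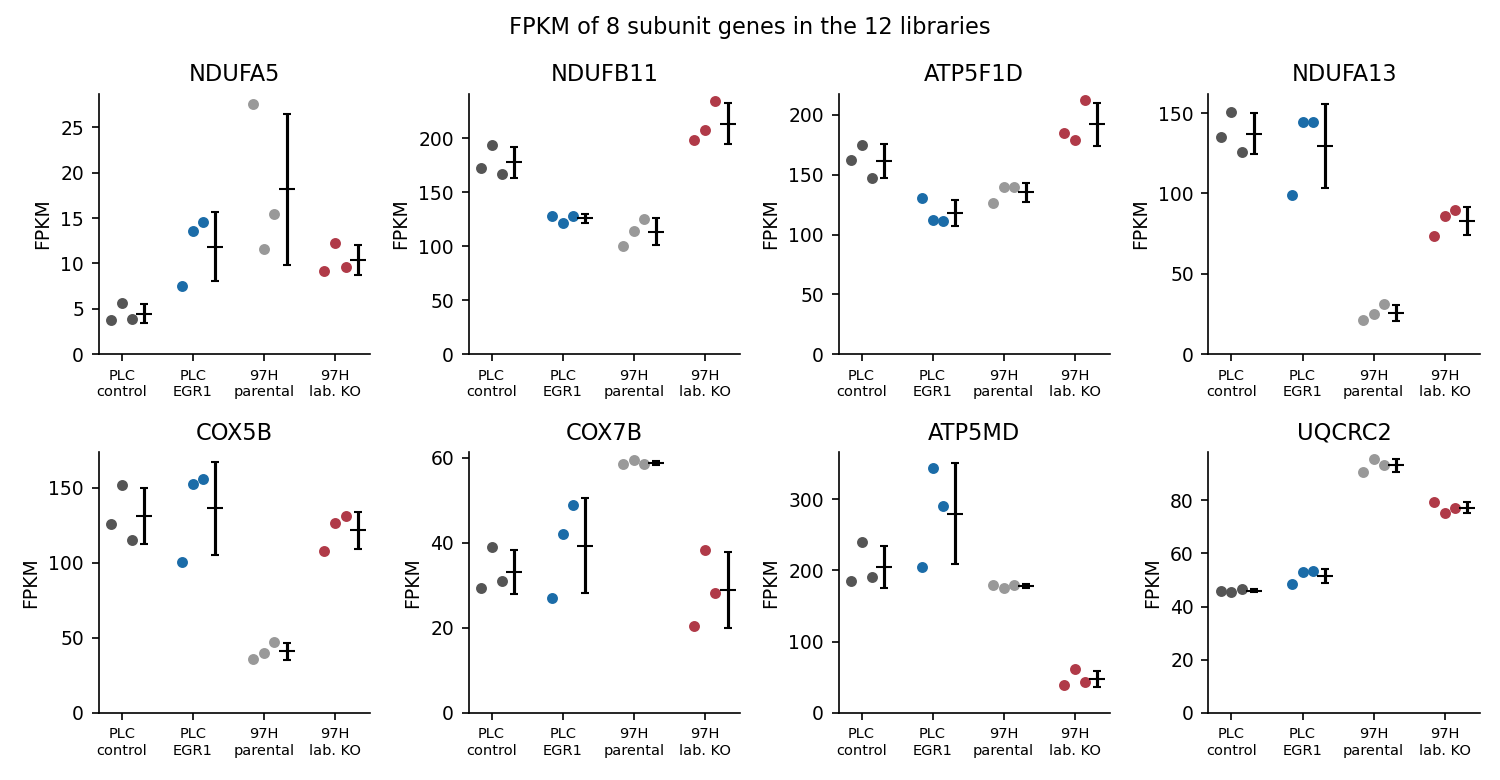
FPKM of 8 subunit genes in each of the 12 libraries, with replicates 1 to 3 from left to right in a group and the mean with SD (n = 3) beside them. ATP5MD drops and NDUFA13 and COX5B rise in the libraries labelled knockout (lab. KO), and NDUFA5 is higher in PLC/PRF5 with EGR1 than in the control.

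In this comparison the change followed transcript GC content. Spearman's rho between them was 0.59 across the 75 subunit genes and 0.77 across 10806 genes, and GC content and length together accounted for 55.1% of the variance of the change over all genes. Subunit genes that were higher had a median GC content of 53.5% and those that were lower 43.7%. After the correction, 31 subunit genes were higher and 14 lower with a median of 0.14, where 28% and 18.4% of all genes were, and 35 genes were called both before and after it, of which ATP5F1D and NDUFS8 changed direction. NDUFA13, NDUFA11, COX5B, COX6A1, ATP5MD and ATP5PO each kept their direction and their call, with ATP5MD at -1.62 and COX5B at 1.33. ATP5F1D moved from 0.50 to -0.21 (adjusted p = 0.0323) and NDUFS8 from 0.48 to -0.19 (adjusted p = 0.0346). Whether the link to GC content comes from the libraries or the cells was not tested.

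**Figure D5:**
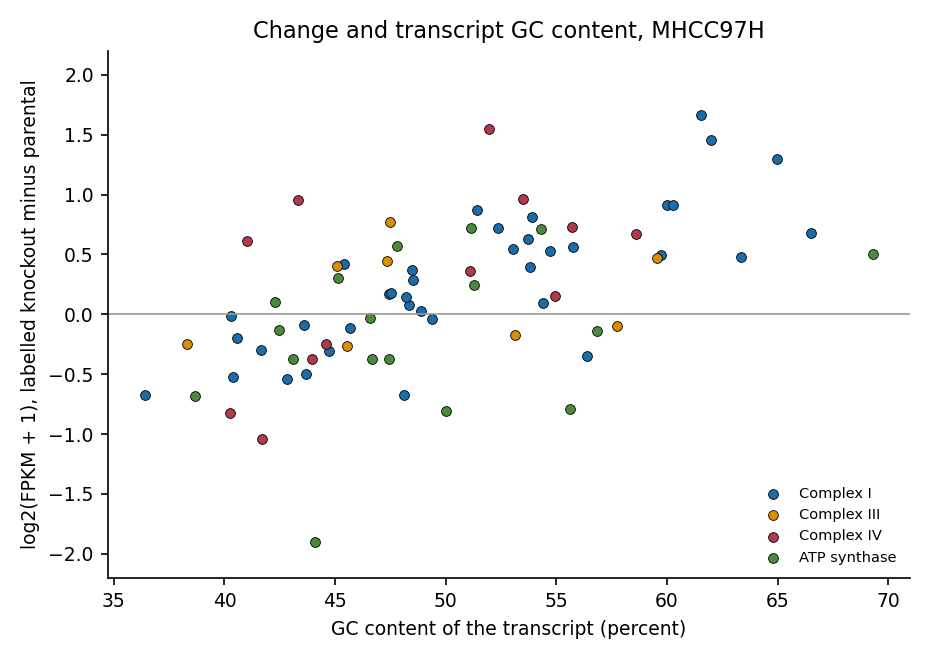
The log2(FPKM + 1) difference between the libraries labelled knockout and parental MHCC97H (vertical) is plotted against transcript GC content in percent (horizontal) for 75 subunit genes, coloured by complex. Spearman's rho is 0.59, ATP5MD is the lowest point at -1.90 and NDUFA13 the highest at 1.67.

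EGR1 overexpression in PLC/PRF5 changed few subunit genes. Of 76 tested, 1 was higher and 2 were lower, against 19.2% and 10.4% of all 11671 genes, and the median was 0.02, against 0.09 over all genes. NDUFA5 (chromosome 7, 123536997 to 123558255 on the minus strand of GRCh38) had 3.83, 5.67 and 3.91 FPKM in the control and 7.48, 13.5 and 14.5 with EGR1, a rise of 1.20 (SE 0.23, adjusted p = 0.00572). NDUFB11, a membrane arm subunit encoded on the X chromosome, had 173, 194 and 167 FPKM against 128, 121 and 128 (-0.49, SE 0.09, adjusted p = 0.00523). ATP5F1D, the delta subunit, had 163, 175 and 147 FPKM against 130, 112 and 112 (-0.45, SE 0.10, adjusted p = 0.0127). None of these overlapped between groups, and 2 subunit genes were above and 10 below the control in all libraries, while 30.4% and 17.3% of all genes were. ATP5F1D did not pass after the GC and length correction (-0.17, adjusted p = 0.13), while NDUFA5 (0.91, adjusted p = 0.0135) and NDUFB11 (-0.33, adjusted p = 0.0133) did. ATP5F1D did not pass without EGR1 replicate 2 (adjusted p = 0.0565) or EGR1 replicate 3 (adjusted p = 0.0508).

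Of 11 hepatocyte and hepatoma markers tested with EGR1, 4 were higher and 0 lower, against 19.2% and 10.4% of all genes. APOA1 was at 4.80 (adjusted p = 1.44e-06), and the endothelial marker PECAM1 was at -0.45 (adjusted p = 0.0143). Their part in the subunit changes was not tested.

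The count of subunit genes called with EGR1 rested on replicate 1, the library in which the family was low. After the GC and length correction 9 subunit genes were higher and 5 lower, against 25.4% and 11.8% of all genes. Without the library, 21 subunit genes were higher and 2 lower, when 27.0% of all genes were called and 65.5% of those were higher. Without control replicate 2 the count was 5 and 2, when 34.3% were called and 69.1% of those were higher. With quantile normalization it was 6 and 6, when 28.04% were called and 46.0% of those were higher. Spearman's rho between GC content and the change was -0.42 across the 76 subunit genes and -0.45 across 10829 genes, and the part of GC content was not tested. ATP5F1A, the alpha subunit, varied widely between the replicates of PLC/PRF5. It had 96.0, 92.9 and 249 FPKM in the control and 192, 239 and 85.7 with EGR1, so both groups spanned a similar range. In the MHCC97H libraries it lay between 46.4 and 53.7 FPKM, and the cause of the spread in PLC/PRF5 was not tested. COX7C had 188, 244 and 189 FPKM in the control and 151, 309 and 289 with EGR1, and ATP5ME had 95.1 in EGR1 replicate 1 and 213 and 199 in the others. In COX7C EGR1 replicate 1 lay under the control range, in ATP5ME it lay within it, and in both genes replicates 2 and 3 lay above it.

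The change with EGR1 and the change in the libraries labelled knockout were compared directly, as the difference of the changes over all 12 libraries. It was positive in 28 and negative in 16 of 76 subunit genes past the threshold, against 30.4% and 33.4% of all 12090 genes, and the split was 26 and 20 with libraries scaled to the same total and 21 and 26 with quantile normalization. Without EGR1 replicate 1 the split was 24 and 22, when 61.7% of all genes were called and 46.7% of those were positive. After the GC and length correction it was 23 and 14, against 22.6% and 26.4% of all genes. NDUFA5 rose with EGR1 and was lower in the libraries labelled knockout by -0.68 (adjusted p = 0.0411). Parental and labelled libraries overlapped there, and that fall was not past the threshold after the GC and length correction. For NDUFA5 the difference of the changes was -1.87 (SE 0.40, adjusted p = 0.00137). NDUFB11 fell with EGR1 and was 0.91 higher in the libraries labelled knockout, where it had 198, 208 and 235 FPKM against 101, 114 and 126 in parental cells. Its difference of the changes was 1.40 (SE 0.14), and it held after the GC and length correction at 0.64 (adjusted p = 0.000168). For ATP5F1D the difference was 0.95 before and 0.04 after that correction (adjusted p = 0.787). Since EGR1 mRNA was higher in both the overexpressing and the labelled libraries, these opposite calls are not opposite with respect to EGR1 mRNA. Of the subunit genes not called with EGR1, 33 were higher, 16 lower and 23 not called in the libraries labelled knockout. Of all 11577 genes tested there, 34.8% were higher and 31.5% lower. The shares among all genes not called with EGR1 were not computed.

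The mtDNA-encoded subunits, the partners of these proteins in the same complexes, showed another pattern. With EGR1, 8 of 13 were higher and 0 lower (median 0.60), and in the libraries labelled knockout 0 were higher and 8 lower (median -0.51). Over all genes, 19.2% were higher and 10.4% lower with EGR1 (median 0.09), and 34.8% and 31.5% in the libraries labelled knockout (median 0.02). After the GC and length correction the counts were 10 and 0, and 1 and 7. In parental MHCC97H 10 were higher than in the PLC/PRF5 control and 1, MT-ND3, was lower by -2.10, against 38.8% and 40.9% of all genes. MT-ND4L, a complex I subunit, rose by 1.07 (adjusted p = 0.00181) with EGR1 and fell by 1.10 (adjusted p = 0.000642) in the libraries labelled knockout. MT-ATP8, of ATP synthase, rose by 0.66 (adjusted p = 0.00689) and fell by 1.79 (adjusted p = 9.1e-06), though its rise did not pass after the GC and length correction (adjusted p = 0.385). MT-ND2, MT-ND4, MT-ND5, MT-ND6 and MT-ATP6 were likewise higher with EGR1 and lower in the libraries labelled knockout, and MT-ND6 alone of these 7 was not past the threshold there after the correction (adjusted p = 0.72). As a share of FPKM, the 13 genes held 6.82% to 7.80% in the control, 9.03% to 11.0% with EGR1, 12.9% to 14.0% in parental MHCC97H and 7.36% to 10.8% in the libraries labelled knockout. Between the lines most mtDNA-encoded subunits were thus higher in parental MHCC97H while most nuclear-encoded ones were lower. The libraries were made from oligo(dT)-selected mRNA, and duplex-specific nuclease degraded abundant cDNA, a step that acts on the most abundant species, and its part in these shares was not tested.

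Other lists of the pathway give the setting. Complex II (SDHA to SDHD) had 1 of 4 higher with EGR1, and 2 higher and 0 lower in the libraries labelled knockout, where SDHA rose by 0.95. Of 43 assembly factors, 4 were higher and 2 lower with EGR1, and of 42 tested in MHCC97H 15 were higher and 11 lower, where 19.2% and 10.4%, and 34.8% and 31.5%, of all genes were. After the GC and length correction the counts were 9 and 3, and 14 and 3. NDUFAF3, a complex I assembly factor, was lower with EGR1 (-0.61, adjusted p = 0.00155) and higher in the libraries labelled knockout (0.56, adjusted p = 0.0016), where it was at -0.097 after the GC and length correction (adjusted p = 0.154). TMEM126B, of complex I assembly, was 0.53 and -0.53, COA6, of complex IV, was 0.84 and 0.33, ATPAF1, of ATP synthase, was -0.43 and -0.32, and CYCS, cytochrome c, was 0.42 and -0.52 in these comparisons, all past the threshold. In the libraries labelled knockout COA6 still passed after the correction, whereas TMEM126B turned to 0.043 (adjusted p = 0.515) and ATPAF1 (adjusted p = 0.0874) and CYCS (adjusted p = 0.0785) no longer passed. NDUFA4L2, a hypoxia-linked relative of NDUFA4, had a mean of 8.26 FPKM in parental MHCC97H and 0.144 in the PLC/PRF5 control, and ATP5IF1, the inhibitor of ATP synthase, had 8.44 and 72.2.

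Among 13 regulators of mitochondrial gene expression, 5 were higher and 0 lower with EGR1, against 19.2% and 10.4% of all genes. Of 12 tested in MHCC97H 2 were higher and 4 lower in the libraries labelled knockout, against 34.8% and 31.5% of all genes. GABPA (the ETS factor), TFAM and TFB2M (mtDNA transcription) and LRPPRC (mitochondrial mRNA stability) were higher with EGR1, by 0.57, 0.57, 0.41 and 0.42, and lower in the libraries labelled knockout, by -0.96, -0.69, -0.54 and -0.61. None of the 4 was past the threshold in the libraries labelled knockout after the GC and length correction (adjusted p = 0.226, 0.814, 0.073 and 0.339). ESRRA, an orphan nuclear receptor of this pathway, was higher in both, by 0.33 and 0.65, but did not pass in the libraries labelled knockout after the correction (adjusted p = 0.733), and GABPA did not pass with EGR1 after it (adjusted p = 0.173). The coactivator PPARGC1A was listed at 0 in all MHCC97H libraries and had a mean of 2.31 FPKM in the PLC/PRF5 control. Of 12 genes for other mitochondrial proteins, such as TOMM20, VDAC1 and citrate synthase CS, 0 passed with EGR1, 4 were higher and 4 lower in the libraries labelled knockout, and 2 were higher and 9 lower in parental MHCC97H than in the control. Over all genes, 19.2% were higher and 10.4% lower with EGR1, 34.8% and 31.5% in the libraries labelled knockout, and 38.8% and 40.9% in parental MHCC97H.

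By position, the 10 tested genes on chromosome 19 form the largest group on a chromosome. All 10 were lower in parental MHCC97H than in the control (median -1.40, against -0.61 over 805 genes of that chromosome), where 40.9% of all genes tested were lower. In the libraries labelled knockout 8 were higher and 0 lower (median 0.62, against 0.57 over 744 genes), and after the GC and length correction 5 were higher and 3 lower (median 0.30 against 0.10). Of all genes tested, 34.8% were higher and 31.5% lower there, and 28% and 18.4% after the correction. The subunit genes of this chromosome thus moved with its other genes in the labelled libraries before the correction. Of the 83 genes, 32 overlap another GENCODE 29 gene on the same strand and 43 have at least 1 pseudogene named after them, 150 in all, so the split of reads between copies, which the sources used here do not describe, is a limit for genes such as NDUFA5 and NDUFB4, with 12 named pseudogenes each, and COX6C with 17.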

How the data were processed

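The authors sequenced oligo(dT)-selected mRNA treated with duplex-specific nuclease and deposited FPKM for each of 12 libraries. The submitters' processing notes name StringTie and hg38. The aligner, the annotation and the versions are not given in the sources used here. Depth is unknown, because no read numbers come with the FPKM, and no count test was run.

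limma 3.58.1 (R 4.3.3), with its trend option, was run on log2(FPKM + 1). A gene was tested if its FPKM averaged 1 or more over the fitted libraries. Tests were 2-sided, without covariates, with Benjamini-Hochberg adjustment over all genes tested and a threshold of 0.05. On this scale the change of low genes is understated. Replicates are separate biological replicates by their labels. GENCODE release 29 gave coordinates, transcript length and GC content for all 83 genes, and the GC and length correction removed splines with 5 degrees of freedom. It also removes real changes that follow GC content. Fits were tested on simulated data. Alternatives were a pseudocount of 0.1, no filter on low values, scaling to the same total, quantile normalization, the trend switched off, a joint fit of the 12 libraries, the replicate block, the correction, and leaving out each library. The members and lists were chosen with earlier results of these data known. Per-library values are given for the 2 largest rises and falls of each complex and comparison among called genes whose groups do not overlap, for isoform sets and NDUFA4, and ATP5F1A, COX7C, ATP5ME, NDUFB11 and ATP5F1D were also shown after their values were seen. Plots used matplotlib 3.10.9. Some genes are not reported by name here.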

Additional observations from a re-analysis of the deposited data

How the results depend on the processing

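The number of subunit genes called with EGR1, 3, was the least stable result. It was 9 with libraries scaled to the same total, 12 with quantile normalization, 5 with all 12 libraries in one fit and 14 with the GC and length correction. Leaving out 1 library gave 2 to 23, with 23 without EGR1 replicate 1 and 7 without control replicate 2. The main fits did not pair samples by replicate number. Correlations of same-numbered deviations were -0.13, 0.14 and -0.08 in PLC/PRF5 and 0.03, 0.03 and 0.47 in MHCC97H. The means over unlike numbers were 0.0098 and -0.087. The 0.47 belongs to replicate 3, and whether same-numbered libraries share an effect was not tested. With the replicate block the count with EGR1 was 8, and 19 with the block and the correction together. In the libraries labelled knockout the median of 0.17 became 0.024 with scaling to the same total and -0.0088 with quantile normalization, and UQCRC1 turned to -0.090 with the correction, with or without the block. Its difference of the changes turned to -0.19 in the same 2 fits. The median of the line comparison, -1.08, was -0.88 without the filter, -0.97 with scaling to the same total, -0.84 with quantile normalization and -0.64 with the correction, with or without the block, and -1.12 to -0.97 when 1 library was left out. The median of the difference of the changes, 0.11, was -0.11 with quantile normalization and -0.051 to 0.22 when 1 library was left out, the lowest without EGR1 replicate 1. The causes were not tested. A tally over all alternatives covered only part of the single-gene results given here. In it, direction and side of the threshold were kept in 852 cases. The call was lost in 31, gained in 3, and the direction turned in 4. The sign changes given above for ATP5F1D, NDUFS8, NDUFAF3 and TMEM126B with the GC and length correction are not among these 4. NDUFB1 accounted for many of the lost calls, in the difference of the changes. Depth is unknown, so what it limits cannot be stated.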
